A study of Mus musculus with 8 samples.

Results

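The genes described here are 7 genes of the outer hair cell: Slc26a5, Ocm, Strc, Ikzf2, Lbh and the acetylcholine receptor genes Chrna9 and Chrna10. They were taken by symbol from the array features that the platform annotation links to exactly 1 gene, which cover 22180 genes on 23521 features. All 7 were found, each with 1 feature. RNA was measured in whole cochlea at postnatal day 16 in 4 knockout mice, labelled miR-183/96 KO, and in 4 control mice whose labels give only the word control. The right and left cochlea of a mouse were pooled, so each Affymetrix Mouse Gene 2.0 ST array stands for 1 animal. The labels used here do not state strain, sex or how the knockout was made.

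Outer hair cells amplify sound in the mammalian cochlea. They shorten and lengthen with voltage through prestin, the product of Slc26a5, and their tallest stereocilia are anchored in the tectorial membrane with the help of stereocilin, the product of Strc. Nerve fibres from the brainstem, the efferents, release acetylcholine onto them. The receptor there is built from the subunits α9 and α10, encoded by Chrna9 and Chrna10, and the calcium it admits opens the potassium channel encoded by Kcnn2, which hyperpolarises the cell. Oncomodulin, the product of Ocm, is a calcium buffer of the parvalbumin family. Ikzf2 encodes Helios, a zinc finger transcription factor of outer hair cell maturation that T cells express too, and Lbh encodes a transcription cofactor found in outer hair cells and in many other tissues.

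The microRNAs named in the knockout label are made in sensory cells, and a microRNA binds messenger RNA mainly through its seed, bases 2 to 8. Their mature sequences are shown because they define what the genotype is labelled to lack, with Mir182 of the same cluster, which the label does not name, for comparison. Capitals mark the seed, and positions count from 1 at the 5′ end.
mmu-miR-183-5p: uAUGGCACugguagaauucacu
mmu-miR-96-5p: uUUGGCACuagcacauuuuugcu
mmu-miR-182-5p: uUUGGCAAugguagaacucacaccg
In RefSeq on GRCm38.p6 they lie on the minus strand at chr6:30169711-30169732 for miR-183, chr6:30169506-30169528 for miR-96 and chr6:30165962-30165986 for miR-182. The seeds of miR-183 and miR-96 share 6 of 7 bases and differ by A2U. The seeds of miR-96 and miR-182 also share 6 of 7, with C8A. Whether the 7 genes carry matches to these seeds in their transcripts was not analysed here.

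The Mir96 feature read 4.01, 4.26, 4.26 and 4.31 in knockout replicates 1 to 4. In control replicates 1 to 4 it read 5.71, 5.26, 6.23 and 5.57, with no overlap between the groups. The dim Mir183 feature overlapped between them, at 2.40, 2.38, 1.82 and 2.38 in knockout replicates 1 to 4 and 2.45, 2.23, 2.79 and 2.84 in control replicates 1 to 4 (difference -0.33; limma adjusted p = 0.398), so it does not check the labels. The Mir182 feature, dim as well, overlapped between the groups and averaged higher in knockout (difference 0.35; limma adjusted p = 0.364). The arrays correlated at 0.947 to 0.976 with each other. Differences between genotypes followed the level of the features, with a median log2 difference (knockout minus control) of 0.13 in the dimmest of 10 equal bins of features and -0.21 in the brightest. The spread of log2 values within an array was 1.37 to 1.44 (SD) in knockout and 1.41 to 1.56 in control arrays. Each of the outer hair cell genes listed at the start is therefore also set beside the features of its own level. For the other genes named below, no median over features of their own level is given.

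Of the 7 genes 0 passed the threshold for a difference between genotypes, an adjusted p of 0.05 in limma with Benjamini-Hochberg adjustment over all tested features (adjusted p = 0.305 to 0.943). The share called in either direction was 0.0128% of all features, which is 3 features, all lower in knockout. Of the 7 genes, 4 had a positive and 3 a negative difference, and the median was 0.02, beside 0.01 over all features. After cyclic loess the median of the 7 was -0.07, beside -0.0050 over all features. At an unadjusted p under 0.05 there was 1 gene, Lbh, beside 14.3% of all features, or 7.25% with the knockout lower. Confidence intervals (95%) spanned 0 for the other 6. For those 6 the bounds furthest from equality were 1.29-fold higher, for Strc, and 1.45-fold lower, for Ocm, in knockout cochlea. These bounds apply to the array's values, and a whole cochlea holds many other cells. In such bulk tissue, fewer outer hair cells and less RNA per outer hair cell cannot be told apart.

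**Figure D1:**
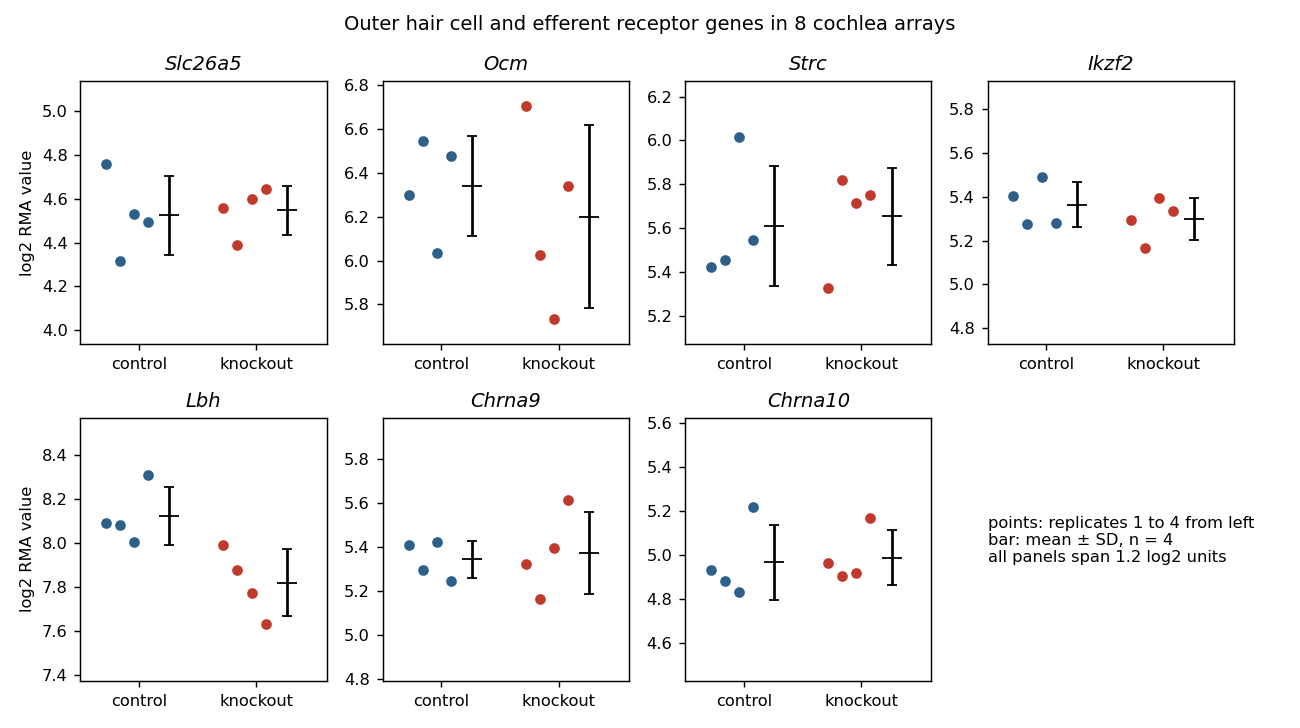
Log2 RMA values (vertical axis) of the 7 genes in the 4 control (blue) and 4 knockout (red) cochlea arrays, with the mean and SD beside each group; every panel spans the same width of the log2 scale. Lbh is the gene whose groups do not overlap, with 7.63 to 7.99 in knockout and 8.003 to 8.31 in control.

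Prestin and oncomodulin, the motor and the calcium buffer, overlapped between genotypes. Slc26a5 (feature 17445898) read 4.56, 4.39, 4.60 and 4.65 in knockout replicates 1 to 4 and 4.76, 4.32, 4.53 and 4.49 in control replicates 1 to 4. The highest and the lowest value were both from control animals, and all knockout values lay between them. The group means were 4.55 ± 0.11 and 4.52 ± 0.18 (SD, n = 4), a log2 difference of 0.02 (SE 0.13, 95% interval -0.25 to 0.30; limma adjusted p = 0.938). An effect of more than 1.19-fold lower or 1.23-fold higher lay outside this interval. Features of like level had a median difference of 0.11. After cyclic loess normalization the difference of Slc26a5 was -0.10 (interval -0.35 to 0.15), so its sign and its bounds depended on the scaling.

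Ocm (feature 17454936) varied most among the 7 genes, over 0.97 log2 units. It read 6.70, 6.03, 5.73 and 6.34 in knockout and 6.30, 6.55, 6.04 and 6.48 in control cochlea. Knockout animals held both the highest and the lowest value. The means were 6.20 ± 0.42 in knockout and 6.34 ± 0.23 in control (SD, n = 4), and the difference was -0.14 (SE 0.18, interval -0.53 to 0.26; limma adjusted p = 0.724). Features of that level had a median of -0.09, and after cyclic loess Ocm was at -0.04. Without knockout replicate 3 the difference was 0.02, without knockout replicate 1 it was -0.31 and without control replicate 3 it was -0.24.

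Strc (feature 17390530), which encodes stereocilin, read 5.33, 5.82, 5.71 and 5.75 in knockout and 5.42, 5.46, 6.02 and 5.55 in control animals. The lowest value was from a knockout animal and the highest from a control animal, and the groups overlapped. The difference was 0.04 (SE 0.15, interval -0.29 to 0.37; limma adjusted p = 0.908), between means of 5.65 ± 0.22 and 5.61 ± 0.27 (SD, n = 4). Features of like level had a median of 0.02, and after cyclic loess Strc was at 0.03.

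The efferent receptor subunits overlapped between genotypes as well. Chrna9 (feature 17437836) read 5.32, 5.16, 5.40 and 5.62 in knockout and 5.41, 5.30, 5.42 and 5.25 in control cochlea, so the control values lay within the knockout range. Its difference was 0.03 (SE 0.12, interval -0.23 to 0.29; limma adjusted p = 0.917). Chrna10 (feature 17494033) read 4.96, 4.90, 4.92 and 5.17 in knockout and 4.93, 4.88, 4.83 and 5.22 in control cochlea. Replicate 4 was the highest animal of both groups. The difference of Chrna10 was 0.02 (SE 0.12, interval -0.25 to 0.29; limma adjusted p = 0.943). On the deposited values both intervals leave out effects beyond 1.19-fold lower or 1.22-fold higher. Features of like level had a median difference of 0.06 for Chrna9 and 0.08 for Chrna10. After cyclic loess both signs turned, to -0.02 for Chrna9 (interval -0.25 to 0.21) and -0.07 for Chrna10 (interval -0.35 to 0.21). Both loess intervals spanned 0, and both reached further down than those of the deposited values.

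Of the transcriptional regulators, Ikzf2 overlapped between genotypes and Lbh did not. Ikzf2 (feature 17223985) read 5.29, 5.17, 5.39 and 5.33 in knockout and 5.40, 5.28, 5.49 and 5.28 in control animals. It had the narrowest range of the 7 genes, 0.32 log2 units, and a difference of -0.07 (SE 0.11, interval -0.30 to 0.17; limma adjusted p = 0.785). Features of like level had a median of 0.06. The Ikzf2 difference minus that median was -0.12, beside -0.10 for Lbh and the median of its own bin. After cyclic loess the Ikzf2 groups no longer overlapped, with 5.19 to 5.32 in knockout and 5.34 to 5.45 in control, as in 2.15% of all features in that direction, and the difference was -0.12 (limma adjusted p = 0.707).

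Lbh (feature 17339554) read 7.99, 7.88, 7.77 and 7.63 in knockout and 8.09, 8.08, 8.003 and 8.31 in control animals. Every knockout animal was below every control animal, the nearest pair being 7.992 and 8.003. The means were 7.82 ± 0.15 and 8.12 ± 0.13 (SD, n = 4), a difference of -0.30 (SE 0.11, interval -0.55 to -0.06), or 1.23-fold lower in knockout. The unadjusted limma p was 0.017 and the adjusted p 0.305. The exact two-sided permutation p was 0.0286, the smallest that 70 assignments of the arrays can give. Among all features 5.96% did not overlap between groups, 2.65% with the knockout lower. Lbh lay in the brightest of the 10 bins, where the median difference was -0.21, where 7.06% did not overlap with the knockout lower and where 23.5% had a difference at or below that of Lbh. After cyclic loess its difference was -0.09 (interval -0.28 to 0.11) and the groups overlapped, at 7.82 to 8.05 in knockout and 7.89 to 8.08 in control. With the signal range of each array as a covariate it was -0.11. The signal range itself averaged 1.40 in knockout and 1.49 in control arrays, so this fit cannot separate it from genotype.

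**Figure D2:**
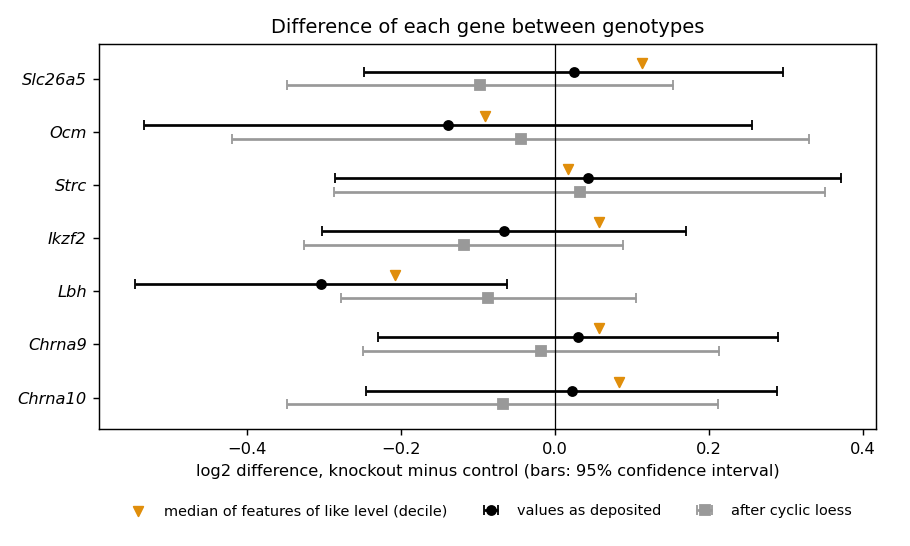
Log2 difference (horizontal axis, knockout minus control) of the 7 genes with 95% confidence intervals, from the deposited values (black) and after cyclic loess (grey), with the median difference of features in the same of 10 bins by level (orange). The deposited interval of Lbh lies below 0, at -0.55 to -0.06, and its loess interval spans 0; the other 6 genes span 0 in both.

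Markers of B cells and skeletal muscle had negative differences, like Lbh. All 6 measured B cell markers had negative differences, with a median of -0.44, and 0 passed the adjusted threshold. Their mean level was 7.08 to 7.53 in knockout and 7.58 to 7.92 in control arrays. After cyclic loess their median was -0.23. All 9 skeletal muscle markers were negative too, with a median of -0.90 (-0.70 after cyclic loess) and 0 past the threshold, at a mean level of 5.59 to 6.84 in knockout and 6.71 to 8.74 in control arrays. With the muscle level as a covariate the Lbh difference was -0.38 (limma adjusted p = 0.736). The muscle level largely followed genotype, so this fit cannot separate it from genotype. The parts of muscle and of B cells in the Lbh value were not tested. Of 6 measured T cell markers, relevant to Ikzf2, 5 were positive and 0 passed, with Foxp3 highest at 0.47 (limma adjusted p = 0.296) and Cd8a at -0.23. Their mean level was 4.99 to 5.08 in knockout and 4.79 to 5.09 in control arrays. The median difference of these T cell markers was 0.09, and 0.0071 after cyclic loess.

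The label was checked against hair cell genes and against genes of the nose and tongue. Among 8 measured hair cell markers, which include Pou4f3, Myo7a and Tmc1, 0 passed the threshold and the median difference was 0.03 (-0.04 after cyclic loess). Those with the smallest p were Espn, an actin bundler of stereocilia, at 0.22, the transcription factor Pou4f3 at -0.10, the tip link gene Cdh23 at 0.08 and the transcription factor Gfi1 at 0.06. Pou4f3 was the 1 marker of the 8 whose groups did not overlap. It read 5.52 to 5.59 in knockout and 5.61 to 5.69 in control arrays. Over all features 2.65% did not overlap with the knockout lower. As a guide to dim signal, 1435 features of olfactory, vomeronasal and taste receptor genes had a 95th percentile of 5.48. Lbh, Ocm and Strc read above that level, and Slc26a5, Chrna10, Ikzf2 and Chrna9 below it. Of the hair cell markers, Espn, Pou4f3, Gfi1, Myo7a and Otof read above it, and Cdh23, Lhfpl5 and Tmc1 below it. Probes respond differently, so this does not rank the genes, and detection calls were not analysed here. A difference at a dim feature can be compressed, and what that did to the 4 dim genes was not tested.

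Chrna9 and Chrna10 belong to the nicotinic receptor family. Of its 16 subunit genes 0 passed, 13 were positive and the median was 0.04. Over all features, bright ones included, 52.4% were positive. Dim features ran positive, with a median of 0.19 over the receptor features of the nose and tongue. The sign count was not compared with features of like level. After cyclic loess the median was -0.0052. The smallest p belonged to Chrng, the γ subunit of embryonic muscle, at 0.35 (interval 0.07 to 0.62; limma adjusted p = 0.305), followed by Chrne, the adult muscle subunit, at 0.21, and the neuronal subunits Chrna7 at 0.21 and Chrna3 at 0.19. The other subunit genes of muscle, Chrna1, Chrnb1 and Chrnd, were at 0.01, -0.03 and 0.07. These stand beside sarcomere genes at lower values, of which Myh4 was at -1.67, Mylpf at -1.30, Tnnt3 at -1.20 and Actn3 at -0.90.

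Genes that work with the efferent receptor did not pass either. Of 9 measured genes of the efferent synapse, 4 were positive and 5 negative, with a median of -0.0057. Kcnn2, the potassium channel that the receptor opens, was at 0.25 (interval -0.01 to 0.50; limma adjusted p = 0.362), with 5.19 in knockout and 4.95 in control on average. Slc5a7, the choline transporter of cholinergic terminals, was at 0.28, and Chat, which makes acetylcholine, at 0.18. After cyclic loess Kcnn2 was at 0.17, Slc5a7 at 0.14 and Chat at 0.06. These features were dim. Among the receptor features of the nose and tongue, their levels lay at percentile 90 for Kcnn2, 77 for Slc5a7 and 82 for Chat. Those receptor features had a median difference of 0.19. The efferent fibres come from the brainstem, and whether cochlear RNA holds their Chat and Slc5a7 transcripts was not tested. Kcnma1, a calcium-activated potassium channel, was at -0.16 on its brighter feature and at 0.39 on its other feature (limma adjusted p = 0.301), so its features disagreed in sign.

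The SLC26 anion transporters, relatives of prestin, had 10 positive and 1 negative difference among 11 genes, a median of 0.07 and 0 past the threshold. Over all features, bright ones included, 52.4% were positive, and no share was taken over features of like level. After cyclic loess the median was 0.02. Slc26a3, an intestinal chloride transporter, was at 0.30 (interval 0.0025 to 0.61; limma adjusted p = 0.347), the sulfate transporter gene Slc26a2 at 0.15, Slc26a9 at 0.12 and Slc26a6 at 0.09. Other outer hair cell genes numbered 9 measured, 6 positive and 3 negative, with a median of 0.08 and 0 past the threshold. Beside Kcnn2 they included Tmprss7 at 0.21, and the lower Pde6d at -0.25 and Sri, which encodes the calcium-binding protein sorcin, at -0.22. After cyclic loess Sri was at -0.01 and Pde6d at -0.15.

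**Figure D3:**
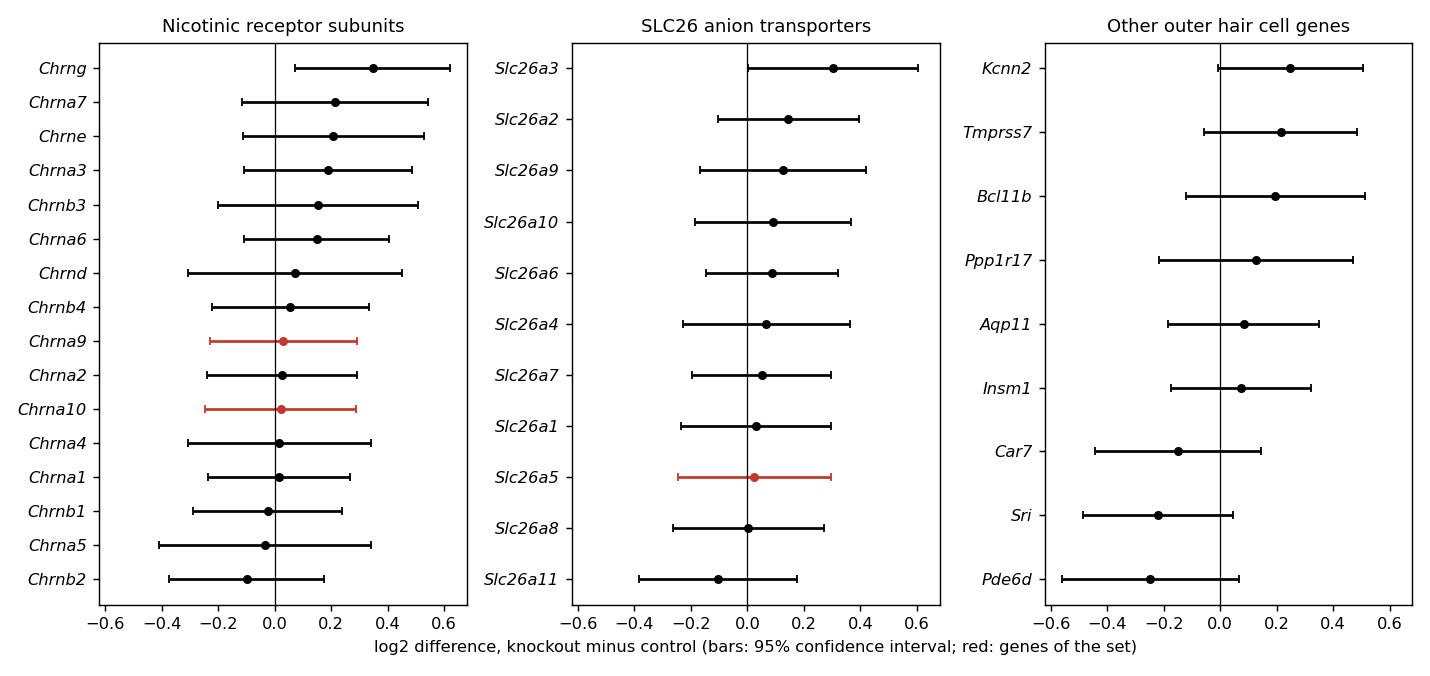
Log2 difference (horizontal axis, knockout minus control) with 95% confidence intervals for 16 nicotinic receptor subunit genes, 11 SLC26 transporter genes and 9 other outer hair cell genes; Chrna9, Chrna10 and Slc26a5 are in red. The intervals of Chrng and Slc26a3 lie above 0 before adjustment, and 0 of the genes shown passed the adjusted threshold.

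Relatives of the remaining genes were compared in the same fit. Of 7 genes of stereocilin, its relatives and the tectorial membrane attachment, 4 were positive and 0 passed, with Otoa, which encodes otoancorin, at -0.17, the tectorins Tectb at -0.13 and Tecta at 0.10, and Mslnl at 0.11. Of the 5 Ikaros family genes 0 passed, with the lymphoid genes Ikzf3 at -0.28 and Ikzf1 at -0.20, Ikzf5 at 0.06 and Ikzf2 itself as above. After cyclic loess Ikzf3 was at -0.12 and Ikzf1 at -0.0013. The calcium buffers contained a called gene. Calb2 (calretinin) fell by 1.60 on the log2 scale (limma adjusted p = 0.000752), while Calb1 at -1.08, Pvalb at -0.96, S100a1 at -0.17 and Ocm did not pass. The groups of Calb2 and of Calb1 did not overlap, with the knockout lower, as in 2.65% of all features. With the signal range covariate Calb2 was at -1.48 and lost its call (limma adjusted p = 0.0506). That covariate differed between genotypes, so the fit cannot separate it from genotype. Skeletal muscle expresses Pvalb as well. Calb2 was also the called gene among the 6 inner hair cell markers. The others with the smallest p were Tbx2 at 0.11, Cabp2 at 0.10 and Slc7a14 at -0.07.

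The 7 genes were also compared with each other. Over the 8 arrays, 0 of 21 pairs were correlated after Benjamini-Hochberg adjustment of exact permutation p-values, by Pearson's r or Spearman's rho, and 10 pairs were positive and 11 negative (median r = -0.05). The lowest was Ocm with Strc, at r = -0.72 (exact permutation p = 0.044, adjusted p = 0.560) and rho = -0.67 (exact permutation p = 0.083, adjusted p = 0.436). It was -0.80 without the 2 arrays farthest from the median of Ocm and -0.72 with values centred within genotype. The highest was Slc26a5 with Chrna9, at r = 0.66 (exact permutation p = 0.074, adjusted p = 0.560) and rho = 0.74 (exact permutation p = 0.046, adjusted p = 0.403). It was 0.89 without the 2 arrays farthest from the median of Slc26a5, and 0.31 after cyclic loess. The partner subunits Chrna9 and Chrna10 had r = 0.22 (exact permutation p = 0.576, adjusted p = 0.862) and rho = 0.00 (exact permutation p = 1.00, adjusted p = 1.00). Without the 2 arrays farthest from the median of Chrna9 their r was -0.74, so its sign rested on those arrays.

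**Figure D4:**
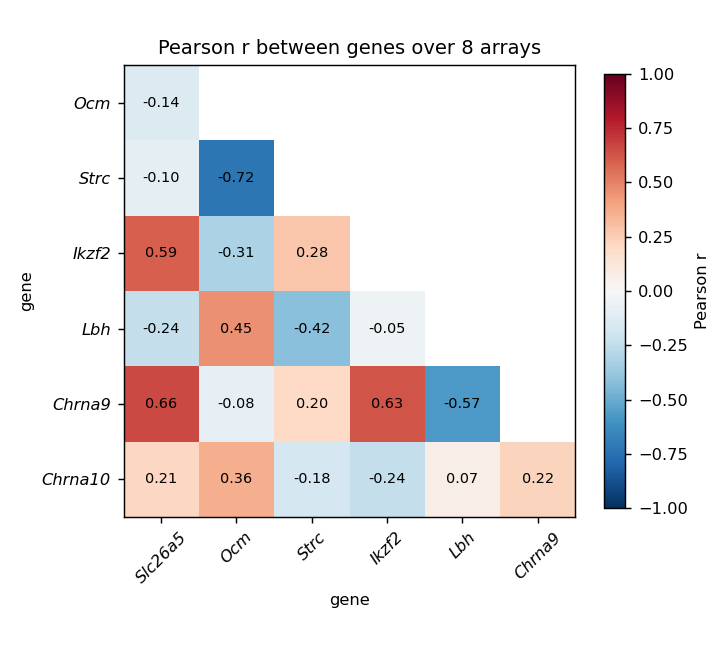
Pearson r over the 8 arrays for the 21 pairs of the 7 genes, with genes on both axes and colour and number giving r. Values run from -0.72 for Ocm with Strc to 0.66 for Slc26a5 with Chrna9, and 0 pairs passed after adjustment.

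Genes whose values followed each of the 7 most closely were listed as a description, by Pearson r over the same 8 arrays among 22179 other genes. With so many candidates and 8 arrays, high values arise for any gene. Slc26a5 was closest to Capn5 (0.98) and D5Ertd605e (0.98), and Ocm to Cnmd (0.99) and Cldn8 (0.98). Strc was closest to Olfr1331 (0.98) and Tmem51os1 (0.98), and Ikzf2 to Magee2 (0.96) and Agmat (0.96). For Lbh they were Rasgrp1 (0.99) and Ube2q1 (0.98), for Chrna9 Phyhip (0.98) and Ssxb5 (0.97), and for Chrna10 Mup5 (0.96) and Tubg1 (0.91). None of the 7 genes was among the 2 closest of another.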

How the data were processed

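The authors deposited log2 expression values per feature, computed with RMA (gene-level analysis) in Affymetrix Expression Console, per the labels. Which arrays were normalized together is not stated there. The scale was read from the values (0.90 to 13.5). RNA (200 ng) was labelled with the WT PLUS kit, per the labels' protocols. Of 41345 features, 23521 with exactly 1 gene symbol were tested in limma 3.58.1 (R 4.3.3), using lmFit, then eBayes with trend, genotype being the sole term, at an adjusted p under 0.05. For a gene with several features, that of highest mean stood for it. The genes and lists were chosen with earlier results of these data known, so no p was adjusted over a list alone and no list was tested. Up to 4 genes a list were named by smallest p, and 2 genes by likeness for each of the 7. Some listed genes were not analysed here. Single values were compared with exact permutation tests. Alternatives covered normalization, filters, covariates, variance settings, a replicate block and leaving out each array. The number of arrays limits the precision. Whether the animals of a group were littermates is not given.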

Additional observations from a re-analysis of the deposited data

How the results depend on the processing

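The count of called genes among the 7 was 0 in all 19 alternatives, with adjusted p-values of 0.131 to 0.997. The filter on a mean of at least 5 left out Slc26a5 and Chrna10, and no gene of the 7 had another feature to try. The 0 correlated pairs stayed at 0 by rho, within genotype and after cyclic loess. Of 131 values of single genes, 105 kept their sign and 26 changed it, all below the threshold. The 105 include settings that cannot change a difference. These are the replicate block, the variance settings without trend or with robust variance, and the choice of features tested. Slc26a5, Chrna9 and Chrna10 turned to -0.0074, -0.0013 and -0.0098 after median-centring, to -0.089, -0.012 and -0.052 after repeated quantile normalization and to -0.097, -0.018 and -0.068 after cyclic loess. With the muscle covariate Slc26a5 was at -0.097 and Chrna10 at -0.028. With the signal range covariate Slc26a5 was at -0.10, Ocm at 0.069, Strc at -0.20 and Chrna9 at -0.17. The muscle level and the signal range both differed between genotypes, so these fits cannot separate them from genotype. Leaving out each array in turn gave -0.045 to 0.10 for Slc26a5, -0.31 to 0.017 for Ocm, -0.019 to 0.18 for Strc, -0.10 to -0.02 for Ikzf2, -0.36 to -0.24 for Lbh, -0.050 to 0.10 for Chrna9 and -0.039 to 0.11 for Chrna10. Lbh did not overlap without any single array, which was fixed in advance, because leaving out an array cannot make separate groups overlap. After repeated quantile normalization the count of genes not overlapping was 0. After cyclic loess the gene not overlapping was Ikzf2 instead of Lbh. The cause was not tested.

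Called features over the whole table numbered 3 in the main fit, 1 with all features of the table, with the muscle covariate or with the signal range covariate, 8 with array weights (3 higher, 5 lower) and 1 to 21 when an array was left out, the 21 without control replicate 3 and the 1 without control replicate 1. With the replicate number as a replicate block the count was 3 (1 higher, 2 lower) and 0 among the 7 genes. Same-numbered animals deviated together at correlations of 0.06, 0.21, 0.21 and -0.29, so the numbers were not taken as pairs. Precision was limited by 4 animals a group and by dim features, for which no detection call was used.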
